A study of Mus musculus with 20 samples.

Results

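Angiopoietin signalling and Apelin signalling, with the endothelial tip cell gene Esm1 and the chemokine gene Cxcl12, were examined in stromal vascular cells of mouse interscapular brown adipose tissue (iBAT). The 8 genes were taken by symbol from the gene table of the deposited matrices and all 8 were found among its 31053 genes: Angpt1, Angpt2, Tek, Tie1, Apln, Aplnr, Esm1 and Cxcl12. Single-cell RNA-seq libraries of lineage marker negative (Lin-) cells came from C57BL/6J male mice that were housed at room temperature (RT), housed at 6 °C over 4 days (COLD), or given the β3-adrenergic agonist CL316,243 by infusion at 0.75 nmol per hour over 4 days (CL), with 2 experiments for each. A further 4 Lin- libraries, 1 per group, came from female mice of an Adrb1 fl/fl line, either Pdgfra-CreER -/- (WT) or Pdgfra-CreER +/- (KO), at RT or after 4 days of cold. All mice of that line had received tamoxifen, and in KO mice the Cre acts in Pdgfra-expressing cells, so vascular cells are not the targeted cells. Mice were 8-14 weeks old, tissue of 3-4 mice was pooled for each library, and n below is the number of libraries.

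Angiopoietin-1 (Angpt1) and angiopoietin-2 (Angpt2) are secreted ligands of the receptor tyrosine kinase Tie2, which Tek encodes, and Tie1 is the related receptor that partners it. Angiopoietin-1 from perivascular cells is known to keep vessels quiescent, and angiopoietin-2 is known as its context-dependent antagonist in vessels that remodel. Apelin (Apln) is a peptide ligand of the receptor Aplnr and, like endocan (Esm1), is known from the tip cells at the front of a sprouting vessel. Cxcl12 encodes a chemokine that vascular and stromal cells secrete and that signals through Cxcr4.

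The Lin- libraries held 66339 cells after filtering, between 2427 and 12894 in each, with a median of 1204 to 3881 UMIs (unique molecular identifiers) per cell. In RT replicate 2, 72.0% of 22072 barcodes exceeded the limit on mitochondrial transcripts, and 27.96% were kept. In CL replicate 2, 1098 barcodes (17.1% of its 6422 Lin- cells) were shared with the Lin+ library of the same experiment, whereas no pair of Lin- libraries shared more than 2.04% (of the smaller library), and results without the shared barcodes are given in the closing section. CL replicate 1 held 5537 of the 11622 vascular endothelial cell-like (VEC-like) cells, against 287 in CL replicate 2. Levels are given as CPM (UMIs scaled to a common total for each class in a library), which 3' UMI counts do not tie to transcript length, so the order of levels is read for each gene across classes and not between genes.

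Cells were clustered without the 8 genes and the genes of the pathway lists, and clusters were named from marker genes. VEC-like cells were split into capillary-like (5306 cells), arterial-like (3195), venous-like (1086) and lymphatic-like cells (208), a small group of 351 cells led by Plvap, Fam167b and Esm1 (Esm1-led endothelial cells), 117 cycling cells and a shallow group of 1359 cells. Mural cells were pericyte-like (1806 cells) or vascular smooth muscle cell-like (VSMC-like; 1671). Adipose stromal cells (ASCs) were ASC1-like (5734), ASC2-like (12146) and ASC3-like (6640), and a further stromal cluster of 7375 cells, led by Cxcl9, Cxcl10 and Ccl2, raised only 1 of 5 ASC1 markers and is called Cxcl9-led stromal. The RT libraries held 65 and 81 Cxcl9-led cells and the COLD libraries 2302 and 2016, while ASC1-like cells numbered 1146 and 1158 at RT and 595 and 300 in COLD. The Cxcl9-led cells may be what the study names cold-activated ASC1, which was not tested, and comparisons of ASC1-like cells between treatments may set different sets of cells side by side. Because the clusters come from the same cells, levels across classes are described without a test.

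On GRCm38.p6 the RefSeq genes lie at chr15:42424667-42676977 (Angpt1), chr8:18690263-18741562 (Angpt2), chr4:94739086-94874976 (Tek), chr4:118471191-118489849 (Tie1), chrX:48025146-48034853 (Apln), chr2:85136360-85139923 (Aplnr), chr13:113209659-113218104 (Esm1) and chr6:117168535-117181368 (Cxcl12). The promoters of 3 members are shown because Esm1, Apln and Cxcl12 carry the patterns described below. They are the 250 bases before the annotated start in RefSeq on GRCm38.p6, written 5′ to 3′ on the gene's strand. The promoter table held 5 of the 8 genes (Tek, Tie1, Cxcl12, Esm1 and Apln), and the promoters of Angpt1, Angpt2 and Aplnr were not used here. Capitals mark each match of GGAA, the core of ETS factor sites, or of ACGTG or GCGTG, the cores of hypoxia response elements, on either strand.
Esm1, chr13:113209409-113209658, plus strand: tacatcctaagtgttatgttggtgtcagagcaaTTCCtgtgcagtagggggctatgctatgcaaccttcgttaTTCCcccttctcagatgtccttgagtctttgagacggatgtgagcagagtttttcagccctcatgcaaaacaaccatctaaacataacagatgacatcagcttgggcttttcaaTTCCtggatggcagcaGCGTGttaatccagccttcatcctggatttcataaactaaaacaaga
Apln, chrX:48034854-48035103, minus strand: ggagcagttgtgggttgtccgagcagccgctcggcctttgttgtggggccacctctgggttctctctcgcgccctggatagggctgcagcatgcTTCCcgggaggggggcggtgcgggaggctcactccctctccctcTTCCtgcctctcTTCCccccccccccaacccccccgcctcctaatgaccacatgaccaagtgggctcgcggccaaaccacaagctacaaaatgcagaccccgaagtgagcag
Cxcl12, chr6:117168285-117168534, plus strand: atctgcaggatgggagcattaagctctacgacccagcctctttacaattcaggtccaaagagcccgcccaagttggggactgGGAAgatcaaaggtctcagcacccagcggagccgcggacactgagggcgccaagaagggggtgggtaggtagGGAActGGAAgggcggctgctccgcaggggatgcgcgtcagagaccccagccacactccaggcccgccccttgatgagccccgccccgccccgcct
Each held 3 matches of GGAA, as did 93.4% of 32851 promoters at least once. Esm1 held 1 match of GCGTG, which 28.2% of all promoters hold, and ACGTG (16.6% of all promoters) was in none of these 3 windows. The matches do not overlap and are a description of the letters only.

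In the C57BL/6J libraries the ligand genes of the angiopoietin system were highest in mural cells. Angpt1 was highest in pericyte-like cells, at 114 ± 35.7 CPM (SD, n = 6 C57BL/6J libraries), followed by VSMC-like cells at 69.1 ± 19.1, and ASC3-like cells at 46.7 ± 16.9. It was 31.02 ± 21.2 in Cxcl9-led stromal and 30.6 ± 9.3 in ASC1-like cells. The ranges of pericyte-like (68.2 to 161 CPM) and VSMC-like cells (39.8 to 87.7 CPM) overlapped. In capillary-like cells Angpt1 did not exceed 5.4 CPM in any C57BL/6J library.

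Angpt2 was highest in VSMC-like cells, at 94.8 ± 22.01 CPM (n = 6), and lay at 32.5 ± 22.6 in pericyte-like and 29.1 ± 17.8 in ASC3-like cells. Of the blood endothelial subtypes with at least 20 cells in 5 or more C57BL/6J libraries, the Esm1-led cells held most, at 43.4 ± 18.1 CPM (n = 5), against 17.9 ± 7.7 in venous-like and 9.4 ± 5.0 in capillary-like cells (n = 6). Lymphatic-like cells, with at least 20 cells in only 2 of these libraries, held 0 and 81.0 CPM there. With the Adrb1 line added they held 90.2 ± 86.7 CPM (n = 5, 0 to 234), against 87.8 ± 25.5 in VSMC-like cells (n = 10), so the order of these classes is not settled. An Angpt2 UMI was found in 8.42% of lymphatic-like and 11.2% of cycling endothelial cells, against 6.05% of Esm1-led cells. VSMC-like cells supplied a median of 25.1% of all Angpt2 UMIs of a library while making up 2.9% of its cells. Its ranges in pericyte-like, ASC3-like and Esm1-led cells overlapped.

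The receptor genes differed in how far they were restricted to endothelium. Tie1 ranged from 238 ± 37.0 CPM in arterial-like to 341 ± 86.1 in Esm1-led cells, was 171 ± 72.4 in the shallow endothelial group (n = 6), stayed at or below 18.7 CPM on average in mural cells, and VEC-like cells supplied a median of 84.1% of its UMIs. Tek was 297 ± 92.4 CPM in venous-like, 271 ± 79.0 in arterial-like and 202 ± 55.3 in capillary-like cells, but also 167 ± 46.8 in ASC2-like cells (n = 6 each). ASC2-like cells supplied a median of 36.3% of the Tek UMIs of a library and VEC-like cells 29.6% (6.26% to 55.2%).

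ASC2-like cells held almost no Tie1, at most 5.4 CPM in any C57BL/6J library, and the summed level of the 8 VEC markers in them was 32.8 to 119 CPM, against 8305 to 11963 CPM in VEC-like cells of the same libraries. Tek averaged less in the other stromal classes, at 93.4 ± 64.1 CPM in a Cthrc1-marked class (n = 4, 31.9 to 183, overlapping ASC2-like cells), 37.0 ± 17.6 CPM in ASC1-like, 37.3 ± 22.6 in Cxcl9-led and 30.0 ± 6.2 in ASC3-like cells. The genes whose levels most resembled those of Tie1 across 16 classes were Egfl7, Pecam1, Kank3, Rasip1 and Cdh5 (Pearson r from 0.989 to 0.991 on log2(CPM + 1)), several of which are general endothelial genes. For Tek they were Triobp, Ramp2, Crybg3, Cyb561 and Hdac7 (r from 0.919 to 0.930).

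The Apelin receptor gene was mainly endothelial, whereas the endothelial share of the ligand gene varied between treatments. VEC-like cells supplied 50.05% and 54.5% of the Apln UMIs at RT, 3.604% and 7.36% after cold, and 32.7% and 1.24% with CL, while making up 20.3% and 19.3%, 12.8% and 9.74%, and 42.9% and 4.47% of the cells. In the Adrb1 line the share of Apln UMIs was 13.6% (WT) and 11.6% (KO) at RT and 1.88% and 6.80% in cold. Aplnr was 391 ± 249 CPM in Esm1-led (n = 5), 328 ± 86.5 in capillary-like and 324 ± 202 in venous-like cells (n = 6), and 25.1 ± 39.5 in arterial-like cells. Its ranges in the first 3 classes overlapped, and VEC-like cells supplied a median of 85.9% of Aplnr UMIs. The genes most like it were Ccdc85a, Fam167b, Adgrg1, Abcb1b and Flt1 (r from 0.928 to 0.942 over 16 classes).

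Apln was highest in Esm1-led cells. It measured 97.97 and 223 CPM at RT, 94.9 and 89.2 after cold, and 96.97 in CL replicate 1. The Esm1-led cells of these libraries held 71.96 Apln UMIs in all. They numbered 31 and 34 at RT, 29 and 26 after cold, and 181 in CL replicate 1. No other class with at least 20 cells in 2 or more C57BL/6J libraries averaged above 15 CPM: venous-like cells held 14.8 ± 6.1, proliferating cells 13.9 ± 3.7 (n = 4) and differentiating adipocyte-like cells 11.1 ± 2.5 (n = 4). Cycling endothelial cells reached 20 cells in a single library, CL replicate 1, where 78 cells held 19 Apln UMIs (66.6 CPM). Over the C57BL/6J libraries an Apln UMI was found in 15.9% of cycling endothelial and 7.32% of Esm1-led cells. Their median depths were 3202 and 1800 UMIs. In pericyte-like cells Apln was at 0 in all 10 libraries. Apln in capillary-like cells was 0 to 6.2 CPM in the C57BL/6J libraries and at most 7.8 in all 10.

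In the C57BL/6J libraries most Esm1 came from the cluster it leads. There it measured 559 and 515 CPM at RT, 643 and 624 after cold, and 33.1 in CL replicate 1 (5 libraries of at least 20 cells). RT and COLD values were close to each other, and CL replicate 1, which held 181 of the 351 cells, was far below them. CL replicate 2 had only 13 Esm1-led cells, and its VEC-like cells held 27.99 Esm1 UMIs, against 20 in CL replicate 1. The low value is thus of 1 CL library. Averages were at or below 2 CPM in capillary-like, arterial-like and venous-like cells, and the cluster, a median of 0.5% of a library's cells, supplied a median of 82.9% of all Esm1 UMIs of a C57BL/6J library. In the Adrb1 line VEC-like cells supplied 80.6% (WT) and 79.1% (KO) of the Esm1 UMIs at RT, and 37.7% and 0% in cold. The WT COLD library held 31.98 Esm1 UMIs in 12 Esm1-led cells and 37.9 in ASC3-like cells (14.7 CPM). The KO COLD library held none in 5 Esm1-led cells and 16.9 in ASC3-like cells.

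Cxcl12 was found in endothelial, mural and stromal classes. Averaged over RT, COLD and CL libraries, it was 4190.5 ± 2511.7 CPM in Esm1-led cells (n = 5) and 2501 ± 1594 in arterial-like cells (n = 6). It was 1890.8 ± 1372.9 in pericyte-like, 1516 ± 920 in capillary-like and 1167 ± 298 in ASC3-like cells (n = 6 each), and the pooled ranges overlapped. The order changed with treatment. At RT pericyte-like cells (3360 to 3831 CPM) lay above arterial-like (990 to 1627) and capillary-like cells (529 to 856). In COLD pericyte-like cells (627 to 726) lay below arterial-like (2662 to 5419) and capillary-like cells (1598 to 3094). Venous-like cells were lower, at 368 ± 132 CPM, with a highest library (562) below the lowest of ASC3-like cells (920.1). The plot of levels by class shows each library.

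**Figure D1:**
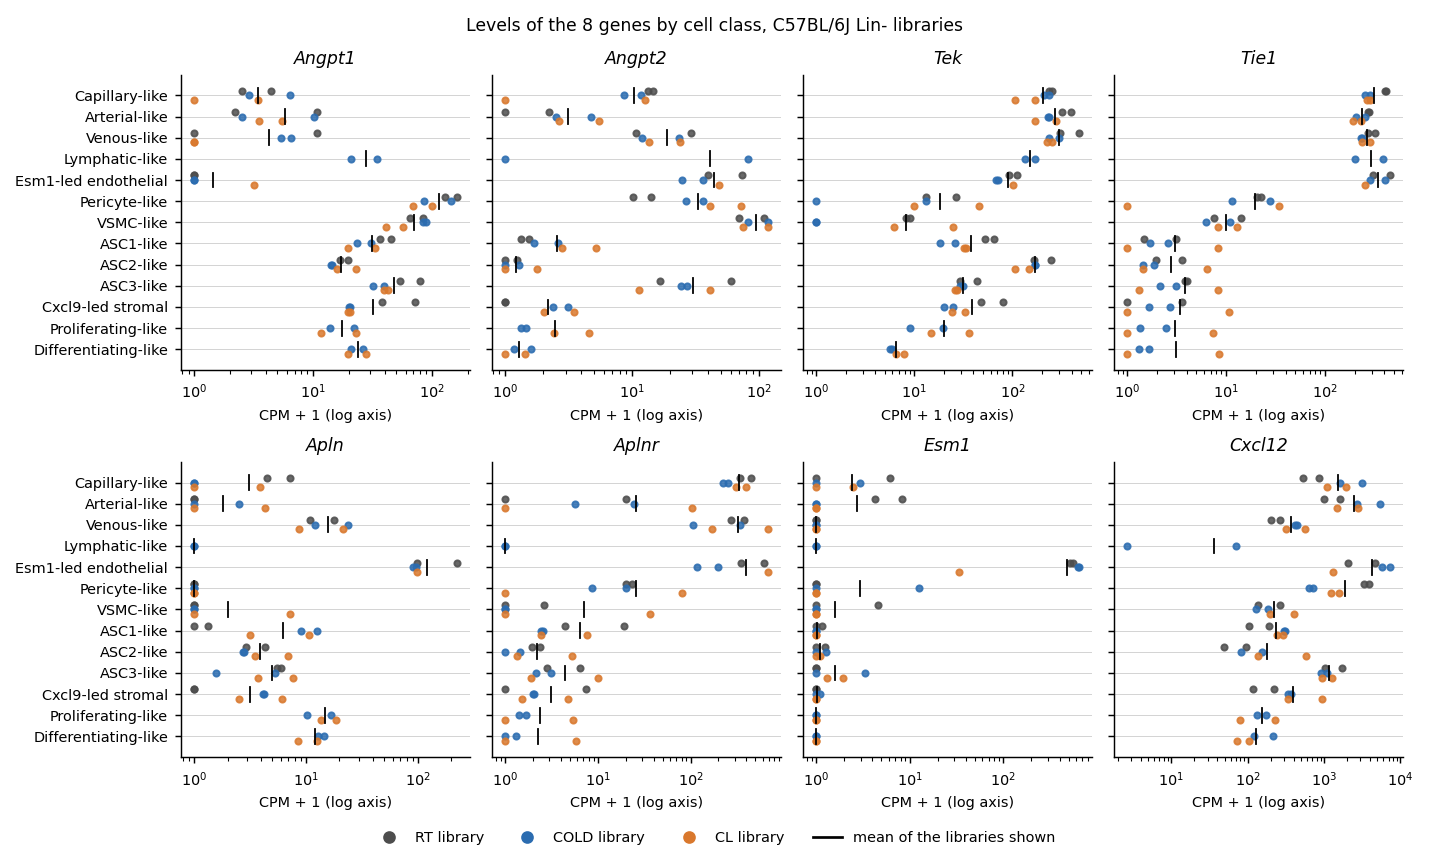
Level of each of the 8 genes in 13 classes of the C57BL/6J Lin- libraries, as CPM + 1 on a log axis (points: libraries of at least 20 cells of the class, coloured by treatment; bars: their mean). Esm1 and Apln are highest in Esm1-led endothelial cells, Angpt1 in pericyte-like cells and Angpt2 in VSMC-like cells, while Tek is high in endothelial and in ASC2-like cells.

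By the same measure of likeness, the genes nearest to Angpt1 were Rtn4rl1, Trpc1, Sox5, Arhgap42 and Hebp1 (r from 0.901 to 0.936), and those nearest to Angpt2 were Zbtb38, Nr2f2, AI838599, 2010111I01Rik and Nr1d2 (0.818 to 0.852). Nr2f2 encodes a transcription factor of venous endothelium. For Cxcl12 they were Kctd12b, Tdrp, Gm11716, Nrp1 and Sh3rf1 (0.834 to 0.904). For Apln, which is highest in the 351 Esm1-led cells, they were Akt1, Inhbb, Ces2e, Gm5 and Gtf2h1 (0.708 to 0.785). The points are classes of the same libraries and carry no test.

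The Esm1-led cells were set beside capillary-like cells of the same 5 libraries. Angpt2 (43.4 ± 18.1 against 11.3 ± 2.2 CPM), Apln (120 ± 57.5 against 2.5 ± 2.6), Cxcl12 (4190.5 ± 2511.7 against 1437 ± 1005) and Esm1 were higher in the Esm1-led cells in 5 of 5 libraries. Tek was lower in them in 5 of 5 libraries, at 88.5 ± 19.1 against 221 ± 32.4 CPM. Tie1 (341 ± 86.1 against 326 ± 76.1) and Aplnr (391 ± 249 against 333 ± 96.0) were higher in only 3 of 5.

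Of a list of 20 genes named from tip cells, 19 averaged at least 10 CPM over both classes, and 6 of these were higher in the Esm1-led cells in all 5 libraries, as were 6.83% of the 8772 genes at that level. They were Plvap, a diaphragm protein of fenestrated endothelium (4915 ± 2679 against 56.1 ± 37.1 CPM), Pgf, a VEGF family ligand (274 ± 202 against 5.5 ± 3.7), Nid2, a basement membrane protein (92.0 ± 54.1 against 25.3 ± 5.4), Cd34, Nrp2 and Pdgfb. The Notch ligand gene Dll4 was lower in 5 of 5 libraries, at 74.5 ± 27.7 against 135 ± 32.6 CPM, as was Unc5b, a netrin receptor gene. Of all genes 8.41% were lower in 5 of 5. Kdr, Flt1, Flt4, Nrp1, Mcam and Lamb1 were higher in 4 of 5. These values come from cells that were clustered on related genes and carry no test.

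Single VEC-like cells showed which of these transcripts were found together. Among 10104 VEC-like cells of the C57BL/6J libraries, 79 held an Apln UMI, 72 an Esm1 UMI and 129 an Angpt2 UMI, and 2 cells held both Apln and Esm1. Of the Esm1-positive cells, 91.7% held Cxcl12, against 55.5% of the others, and the share was higher than in the other cells in 6 of 6 libraries. Of the Apln-positive cells, 54.4% held Aplnr, against 20.3% of the others, and 12.7% held Angpt2, against 1.19%. Each of these shares was higher in 4 of 6 libraries, and CL replicate 1 held 42 of the 79 Apln-positive cells. Positive cells were deeper than the rest, with a median of 2072 against 819 UMIs for Apln and 1737 against 820 for Esm1, and the part of depth in these shares was not tested.

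Esm1-positive and Apln-positive cells were spread differently over the subtypes. The Esm1-led cells, 3.1% of VEC-like cells, held 87.5% of the Esm1-positive cells and 29.1% of the Apln-positive ones. Cycling endothelial cells, 1.1% of VEC-like cells, held 21.5% of the Apln-positive cells, and venous-like and capillary-like cells 20.3% each. Of the Angpt2-positive cells 44.2% were capillary-like, a class that made up 48.5% of VEC-like cells, and 14.7% each were Esm1-led and venous-like (7.76% of VEC-like cells).

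To compare treatments at equal depth, VEC-like cells were thinned to 1000 UMIs each, which left out 164 and 743 shallower cells at RT, 572 and 122 after cold, and 4138 and 72 with CL. Esm1 was then found in 9 of 974 and 9 of 447 cells at RT, 7 of 692 and 6 of 566 in COLD, and 4 of 1399 and 3 of 215 in CL. As shares these were 0.924% and 2.01% at RT, 1.01% and 1.06% in COLD, and 0.286% and 1.395% in CL. Without thinning the mean difference between COLD and RT was 0.498 percentage points in place of -0.433, so no direction is read from it.

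The shares of cells with an Apln UMI were 0.821% and 0.671% at RT, 0.723% and 0.530% in COLD, and 1.14% and 0% in CL. The last is 0 of 215 cells, which allows up to 1.395% with a UMI at this depth and does not bound the cells that express it. For Angpt2 they were 0.719% and 0.671% at RT, 1.01% and 1.24% in COLD, and 0.929% and 2.33% in CL. Without thinning the mean Angpt2 difference between COLD and RT was -0.0627 percentage points in place of 0.429, so no direction is read here either. ASC2-like cells, taken as a class that should lack Esm1 and Angpt2, held Esm1 in at most 0.0503% and Angpt2 in at most 0.101% of cells. They held Apln in 0.115% to 0.422%, at median depths of 1648 to 4464.5 UMIs against 1304 to 2287 in VEC-like cells. The exact two-sided permutation test gave p-values from 0.333 to 1 for these genes in COLD and in CL against RT, and 0.333 is the smallest p that 2 libraries against 2 allow. A change in how many VEC-like cells carried these transcripts was thus not detectable.

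Treatment effects were tested per class with edgeR on counts summed over the cells of a library. Of 72 combinations of gene and class, 37 passed the filter on low counts, and with COLD against RT 2 of them passed an adjusted p of 0.05: Apln and Tek, both in ASC1-like cells. Apln there, and Angpt2 in pericyte-like cells, had passed the filter only through the treated libraries, where they are high, so their place in this and every later count is a description and their p-values are not given, which leaves Tek. Over all genes and the 9 classes tested, 1.35% passed in that comparison. The SE of a fold change given as a description comes from the same test and is no support for a change. With CL against RT none of 37 passed (12 had an unadjusted p under 0.05 in edgeR, as did 7.38% of all genes, and DESeq2 called 0), where 0.17% of all genes passed. The study's methods pool libraries by replicate experiment, and with the replicate number as a block 1 of 37 passed with CL, Cxcl12 in ASC2-like cells, where 0.378% of all genes did. With COLD against CL none of 37 passed (7 unadjusted, beside 7.72% of all genes, and 0 in DESeq2), where 0.0314% of all genes did.

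In DESeq2, 6 combinations of 70 passed with COLD against RT (0.807% of all genes), adding Cxcl12 in VEC-like, capillary-like, arterial-like and pericyte-like cells to Apln and Tek. When the Adrb1 line libraries were added to the fit with their line as a term, 11 of 44 passed (7.83% of all genes). These were the same 6, with Aplnr in capillary-like and ASC1-like cells, Cxcl12 and Angpt1 in ASC1-like cells, and Angpt1 in ASC3-like cells. In that line the RT samples were made with 10x Genomics kit v3 and all others with v2, so kit and temperature cannot be told apart within it. The fit with that line held no term for genotype, so WT and KO libraries at a temperature were treated as replicates. ASCs express Pdgfra, so ASC1-like and ASC3-like cells are among the cells that the knockout targets. The C57BL/6J replicates are separate experiments of pooled mice, and in fits of those libraries alone the p-values measure the spread between such pools. Wherever a library is left out below, its treatment keeps 1 library, which is assumed to vary like the other groups, so those values show how far a call rests on a library and are no further support for it.

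Apln was higher after cold in ASC1-like cells. At RT it measured 0.34 and 0 CPM, after cold 8.0 and 11.6, and with CL 9.7 and 2.2. All COLD and CL values lay above both RT values. The fitted log2 fold change was 4.96 ± 0.87 (SE) with COLD and 3.94 ± 1.00 with CL, given as a description.

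These levels rest on few molecules, and the size of the fitted change is set by an RT group near 0. ASC1-like cells held 2 Apln UMIs at RT and 31 after cold. The ratio of CPM was 37.1 (95% interval from 9.45 to 320, counting error only). For the 15 UMIs in CL it was 15.9 (from 3.69 to 143). Apln passed the filter only through treated libraries, so these intervals, over pooled UMIs, are no test of a change. In ASC1-like cells 7.71% of 10602 genes passed with COLD, 4.35% rising and 3.36% falling.

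Markers of other cell types moved with Apln in these cells. The summed level of 7 adipocyte markers was 156 to 335 CPM at RT, 875 to 1794 in COLD and 544 to 1181 in CL, with 6 of 7 genes above both RT libraries in COLD and in CL, and none at 0 in any treatment. The summed level of 6 proliferation markers was 6.9 to 13.7 CPM at RT, 35.2 to 128 in COLD and 24.1 to 108 in CL, with 6 of 6 and 4 of 6 above both RT libraries. Proliferating and differentiating cells, as given above, held Apln at 13.9 and 11.1 CPM. The part of such cells in the change was not tested. The 8 VEC markers summed to 28.3 to 47.7 CPM at RT, 38.6 to 56.9 in COLD and 39.4 to 107 in CL.

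In the Adrb1 line, Apln in ASC1-like cells was 0 (WT) and 1.6 CPM (KO) at RT and 2.2 and 5.2 CPM in cold. In Cxcl9-led stromal cells it was 0 in both C57BL/6J RT libraries, 3.2 in both COLD libraries, and 5.1 and 1.5 CPM in CL. The Adrb1 line gave no common direction there, with 0 (WT) and 6.9 CPM (KO, 5 UMIs) at RT and 9.3 and 2.3 CPM in cold. With so few such cells at RT (65 and 81), a count of 0 there does not bound the change, and Apln did not pass the filter on low counts in that cluster.

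Tek was lower after cold in ASC1-like cells, where RT and COLD may hold different sets of cells, as given above. At RT it measured 52.1 and 63.8 CPM, after cold 24.9 and 17.2, and with CL 30.8 and 32.9, with both COLD and both CL libraries below both RT libraries. The log2 fold change was -1.33 ± 0.24 with COLD (adjusted p = 0.0093, edgeR) and -0.67 ± 0.23 with CL (adjusted p = 0.39). Without COLD replicate 1 or COLD replicate 2 the adjusted p with COLD was 0.0667 or 0.0749.

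The Adrb1 line gave the same order, at 53.0 (WT) and 55.7 CPM (KO) at RT against 27.97 and 22.9 in cold. In Cxcl9-led stromal cells Tek was 47.2 and 78.7 CPM at RT, 18.9 and 24.1 in COLD and 23.5 and 31.8 in CL. There the log2 fold change with COLD was -1.39 ± 0.37 (adjusted p = 0.13, edgeR), in a class where 0.94% of genes passed, and none of the 3 members tested did.

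Other members of ASC1-like cells gave smaller or less certain values. Angpt1 was 35.6 and 44.6 CPM at RT against 29.8 and 22.6 in COLD (log2 fold change -0.50 ± 0.25, adjusted p = 0.26, edgeR), and 8.8 and 9.1 CPM in cold in the Adrb1 line against 28.8 and 42.5 at RT. Aplnr was 3.4 and 17.98 CPM at RT and 1.6 and 1.4 in COLD (-2.30 ± 0.87, adjusted p = 0.14, edgeR), from 52 against 5 UMIs. Cxcl12 was 191 and 104 CPM at RT, 303 and 295 in COLD and 292 and 239 in CL, with a log2 fold change with COLD of 1.00 ± 0.43 (adjusted p = 0.19, edgeR), and it was 1.96 without RT replicate 1 (adjusted p = 0.0035) and 0.40 without RT replicate 2 (adjusted p = 0.458).

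When the Cxcl9-led cells were counted with the ASC1-like cells, 4 of 7 members passed with COLD, where 13.7% of all genes did. In edgeR they were Apln (3.97 ± 0.86, a description), Tek (-1.29 ± 0.22, adjusted p = 0.0072), Angpt1 (-0.86 ± 0.17, 0.0128) and Aplnr (-2.68 ± 0.68, 0.0340). This grouping was chosen after the data were seen.

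**Figure D2:**
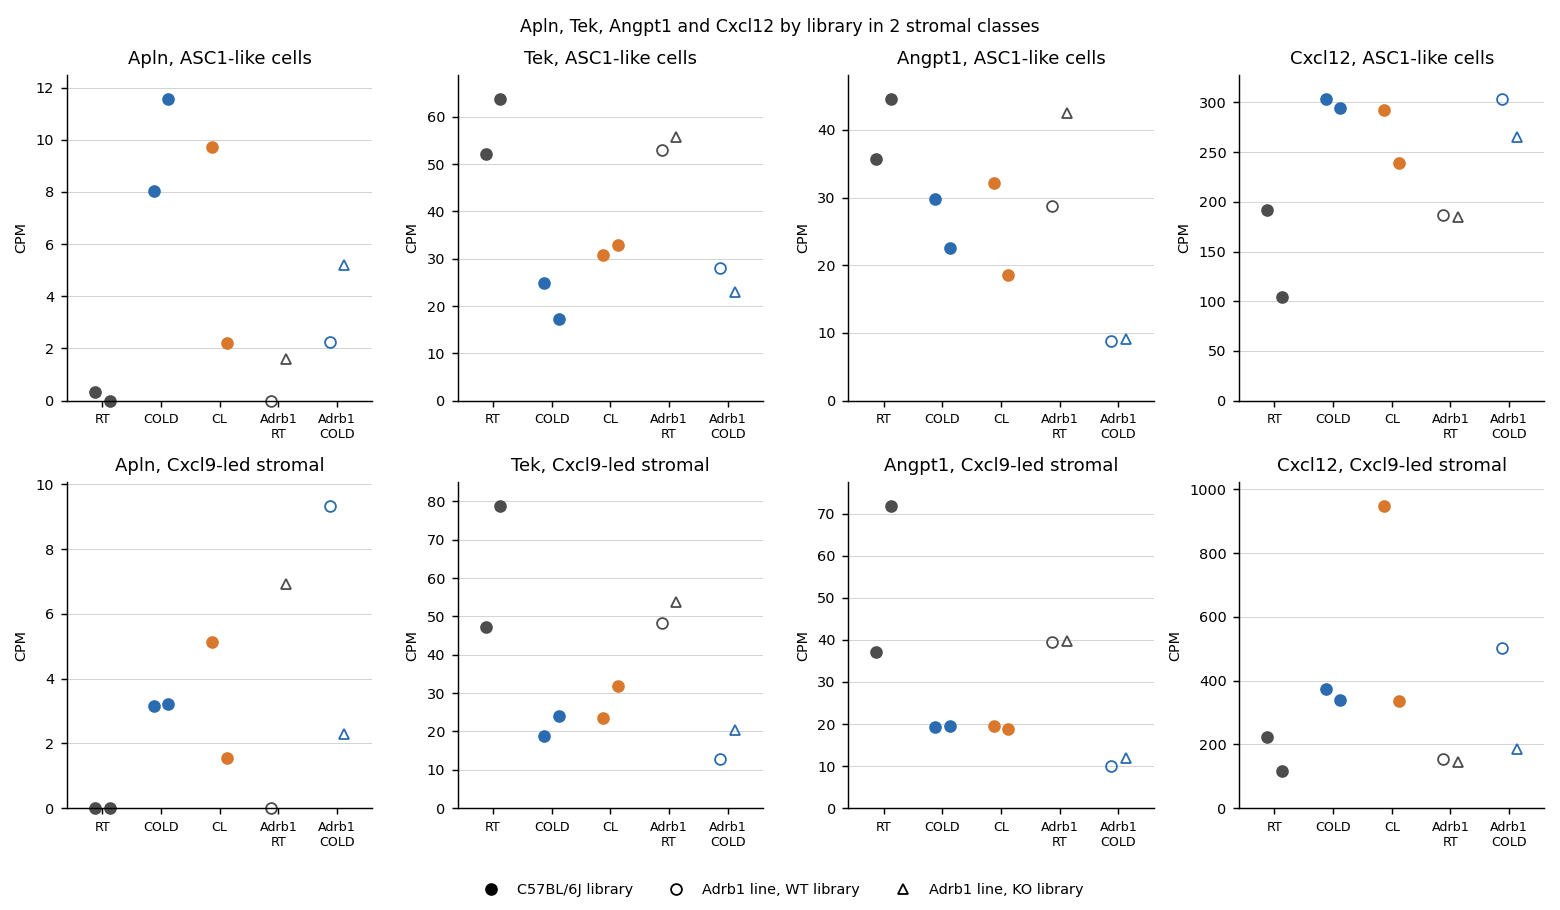
Apln, Tek, Angpt1 and Cxcl12 in CPM (linear axes from 0) in each Lin- library for ASC1-like cells (top) and Cxcl9-led stromal cells (bottom). Filled points are C57BL/6J libraries and open symbols the Adrb1 line (circles WT, triangles KO). In ASC1-like cells Apln is near 0 in the C57BL/6J RT libraries and Tek is higher in all RT libraries than in any other.

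Whether the cold response of a member differed between classes was tested directly. Over 6 pairs of classes and the 3 contrasts, 8 of 105 member tests passed (1.6% of all genes), and 3 of the 8 were of Apln. Apln did not pass the filter on low counts in ASC2-like or ASC3-like cells alone, and its RT level in ASC1-like cells is near 0, so these 3 are a description. For Apln the fitted log2 fold change with COLD was larger in ASC1-like cells than in ASC2-like cells by 5.45 ± 1.00, in ASC3-like cells by 6.29 ± 1.22 and in VEC-like cells by 5.63 ± 0.86 (the size of a difference coded -5.63 for VEC-like against ASC1-like cells).

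In ASC2-like cells Apln was low, at 1.9 and 3.3 CPM at RT and 1.8 and 1.7 in COLD. It was also low in ASC3-like cells, at 5.0 and 4.5 CPM at RT and 4.3 and 0.6 in COLD. VEC-like cells held more, at 9.99 to 10.8 CPM at RT and 5.8 to 7.3 in COLD. For Tek the fold change with COLD was lower in ASC1-like than in ASC2-like cells by -1.13 ± 0.25 (adjusted p = 0.0145, edgeR) and than in ASC3-like cells by -1.18 ± 0.30 (0.0239), and it was higher in VEC-like than in ASC1-like cells by 1.03 ± 0.26 (0.0317). Tek in ASC2-like cells was 166 and 248 CPM at RT and 168 and 170.1 in COLD.

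The calls for Tek did not hold with fewer libraries, while the differences stayed of like size. Without RT replicate 1, COLD replicate 1 or COLD replicate 2 the adjusted p against ASC2-like cells was 0.0796, 0.0757 or 0.151. Leaving out RT replicate 1, COLD replicate 1, RT replicate 2 or COLD replicate 2 gave 0.216, 0.0844, 0.0581 or 0.203 against ASC3-like cells and 0.196, 0.112, 0.139 or 0.283 between VEC-like and ASC1-like cells. The differences then ran from -0.93 to -1.48 against ASC2-like cells, from -0.97 to -1.40 against ASC3-like cells and from 0.81 to 1.33 between VEC-like and ASC1-like cells.

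Cxcl12 after cold lay above RT in capillary-like cells and below RT in pericyte-like cells, and neither difference passed in edgeR. In capillary-like cells it was 529 and 856 CPM at RT, 1598 and 3094 in COLD and 1109 and 1910.3 in CL, with no overlap between RT and either treatment. The log2 fold change with COLD was 1.81 ± 0.49 (adjusted p = 0.11, edgeR) in a class where 1.4% of genes passed, and 1.25 ± 0.48 with CL (adjusted p = 0.48). In pericyte-like cells it was 3360.3 and 3831 CPM at RT, 726 and 627 in COLD and 1218 and 1582 in CL, again without overlap, and the log2 fold change with COLD was -2.38 ± 0.55 (adjusted p = 0.18, edgeR).

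Both passed in DESeq2 (adjusted p = 0.0090 and 1.08e-05) and with the Adrb1 line added (0.0022 and 0.0016). In that line the capillary-like cells held 798 (WT) and 688 CPM (KO) at RT against 2595 and 2679 in cold, and the pericyte-like cells 1878 and 2011 at RT against 655 and 388 in cold. Whether either passed in edgeR changed with the library left out, and those fits are no further support for a call. Over all settings the log2 fold change with COLD ran from 1.22 to 2.22 in capillary-like cells and from -2.58 to -2.17 in pericyte-like cells.

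The difference between the capillary and pericyte responses is a description, since the pair was chosen after these values were seen. The fitted log2 fold change with COLD was higher in capillary-like cells by 4.04 ± 0.68, by 3.83 ± 0.40 with the Adrb1 line added, and by 3.46 ± 1.10 without COLD replicate 2.

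The sub-clusters held RT and COLD cells in unequal numbers. Of the 3 capillary-like sub-clusters, the first held 78 and 470 cells at RT and 446 and 140 in COLD, the second 23 and 49 against 226 and 105, and the third 570 and 106 against only 2 and 3. In the first and second, Cxcl12 was higher in each COLD library than in either RT library. In both pericyte-like sub-clusters COLD lay below RT, but 1 of them held only 16 cells of RT replicate 2. Arterial markers moved with Cxcl12 in capillary-like cells in COLD. The 8 of them summed to 530 to 762 CPM at RT, 1377 to 1959 in COLD and 586 to 859 in CL. Above both RT libraries lay 7 of 8 in COLD and 1 of 8 in CL, and none was at 0. In pericyte-like cells 6 VSMC markers summed to 105 to 258 CPM at RT, 1061 to 1905 in COLD and 1542 to 1989 in CL, with 5 of 6 above both RT libraries in COLD and none at 0 there, and only Cnn1 at 0 in CL. The 8 VEC markers in pericyte-like cells summed to 1082 to 1238 CPM at RT, 1999 to 2021 in COLD and 855 to 2021 in CL. The part of these cells in the changes was not tested.

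In arterial-like cells Cxcl12 was 990 and 1627 CPM at RT, 2662 and 5419 in COLD and 2819 and 1490.4 in CL. COLD lay above RT and CL overlapped it, and the log2 fold change with COLD was 1.73 ± 0.57 (adjusted p = 0.45, edgeR). VSMC-like cells, at 266 and 137 CPM at RT, 185 and 129 in COLD and 408 and 198 in CL, overlapped between treatments. In ASC3-like cells the values were 1044.6 and 1721 CPM at RT and 920.1 and 1108 in COLD, and the difference in the response between ASC1-like and ASC3-like cells, 1.52 ± 0.42, had an adjusted p of 0.0356 (edgeR). Without COLD replicate 1, RT replicate 2 or COLD replicate 2 it was 1.35, 0.74 or 1.68, and the call did not hold. Over all settings it ran from 0.74 to 2.35.

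In ASC2-like cells Cxcl12 was 94.9 and 47.9 CPM at RT, 153 and 80.8 after cold, and 574 and 136 with CL. Only CL lay above RT without overlap, with a log2 fold change of 2.32 ± 0.65 (adjusted p = 0.35, edgeR), or 2.29 ± 0.31 with the replicate block (adjusted p = 0.026, edgeR). In Cxcl9-led stromal cells it was 223 and 117 CPM at RT, 374 and 339 after cold, and 947 and 335 with CL, where the log2 fold change with CL was 1.87 ± 0.56 (adjusted p = 0.28, edgeR). In both classes CL replicate 1 was the highest library, and CL replicate 2 lay below a COLD library. VEC-like cells made up 42.9% of the cells of CL replicate 1 and 4.47% of those of CL replicate 2. Whether this bears on Cxcl12 in the stromal classes was not tested.

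**Figure D3:**
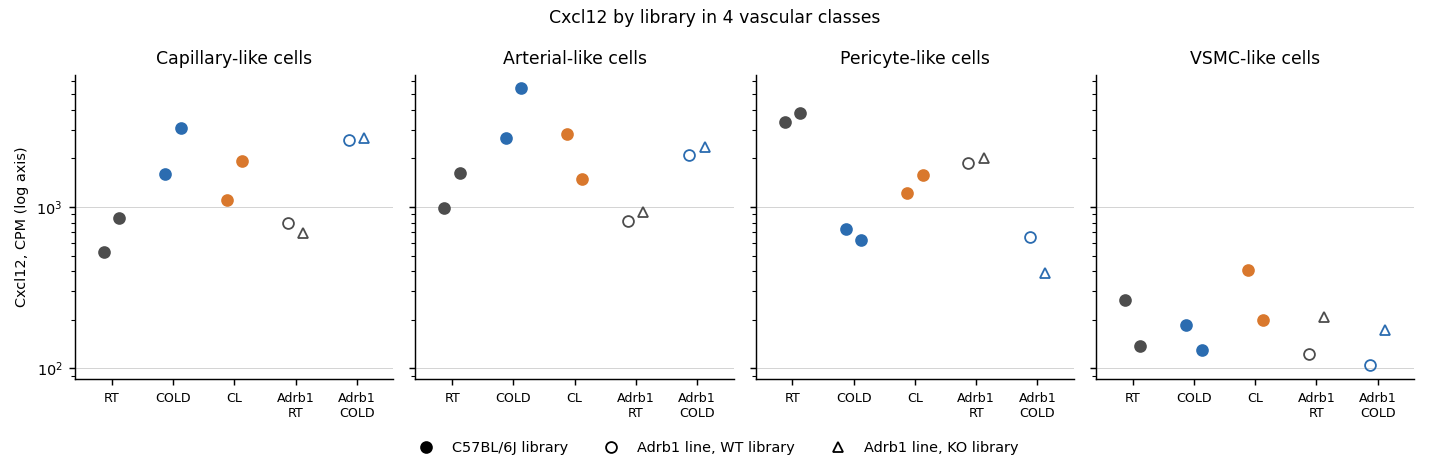
Cxcl12 in CPM (log axis) in each Lin- library for capillary-like, arterial-like, pericyte-like and VSMC-like cells. Filled points are C57BL/6J libraries and open symbols the Adrb1 line (circles WT, triangles KO). COLD libraries lie above the RT libraries of their line in capillary-like and arterial-like cells and below them in pericyte-like cells.

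Angpt2 in pericyte-like cells was 9.1 and 13.2 CPM at RT, 35.1 and 25.4 in COLD and 71.4 and 40.6 in CL. Both treatments lay above RT without overlap, with a fitted log2 fold change of 2.43 ± 0.49 with CL and 1.43 ± 0.52 with COLD. Like Apln in ASC1-like cells, the gene passed the filter on low counts only through treated libraries, so these values are a description. Thinned to 1000 UMIs, 2 of 282 and 0 of 195 pericyte-like cells held an Angpt2 UMI at RT, 6 of 140 and 6 of 206 in COLD, and 10 of 77 and 3 of 101 in CL. The Adrb1 line gave 0 (WT) and 24.9 CPM (KO) at RT and 17.2 and 31.6 in cold, with 41 to 97 cells a library. The VSMC markers given above moved with this gene as well, and VSMC-like cells held it at 94.8 CPM.

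Angpt1 in pericyte-like cells was 127 and 161 CPM at RT, 143 and 84.7 in COLD and 68.2 and 99.3 in CL. Only CL lay below RT without overlap, with a log2 fold change of -0.68 ± 0.34 (adjusted p = 0.70, edgeR). In ASC3-like cells Angpt1 was 53.3 and 77.9 CPM at RT, 38.5 and 30.7 in COLD and 41.7 and 38.3 in CL, and 58.2 and 56.96 at RT against 17.4 and 23.6 in cold in the Adrb1 line. The log2 fold change with COLD was -0.89 ± 0.21 (adjusted p = 0.26, edgeR).

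No receptor gene passed the test within an endothelial class in the C57BL/6J libraries (edgeR). In VEC-like cells Tek was 269 and 291 CPM at RT, 223 and 219.7 in COLD and 162 and 196 in CL, and Tie1 was 352 and 349.9 CPM at RT, 231 and 266 in COLD and 250.01 and 258 in CL. Aplnr in VEC-like cells measured 229 and 299.7 CPM at RT, 173 and 99.7 after cold, and 365 and 149.5 with CL. All 3 were lower in both COLD libraries than in both RT libraries. The log2 fold changes with COLD were -0.34 ± 0.22 for Tek (adjusted p = 0.67, edgeR), -0.50 ± 0.25 for Tie1 (0.565) and -0.94 ± 0.39 for Aplnr (0.491). Aplnr in capillary-like cells was 344 and 452 CPM at RT, 249.8 and 224 in COLD and 395 and 306 in CL, with a log2 fold change with COLD of -0.73 ± 0.29 (adjusted p = 0.29, edgeR). In the Adrb1 line it was 309 (WT) and 232 CPM (KO) at RT and 180.2 and 163 in cold. With that line added the capillary-like value passed (adjusted p = 0.0193, edgeR). The arterial markers and sub-cluster numbers given above for capillary-like cells moved here as well. Arterial-like cells averaged 25.1 CPM of Aplnr, and the part of such cells in the fall was not tested.

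Aplnr differed between capillary-like and arterial-like cells with CL through a single library. The log2 fold change was lower in capillary-like cells by -2.53 ± 0.57 (adjusted p = 0.0478, edgeR). Aplnr in arterial-like cells measured 19.2 and 0 CPM at RT and, with CL, 103 and 0, so without CL replicate 1 the arterial-like CL group is a library at 0, and no direction can be read from that fit. Over all VEC-like cells, Esm1 was 25.2 and 22.2 CPM at RT, 17.4 and 23.8 in COLD and 4.1 and 43.7 in CL. The CL libraries lay on either side of the others, so no direction with CL is read. Without CL replicate 2, when CL is CL replicate 1 alone, the log2 fold change was -2.51 with an adjusted p of 0.0213 (edgeR).

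**Figure D4:**
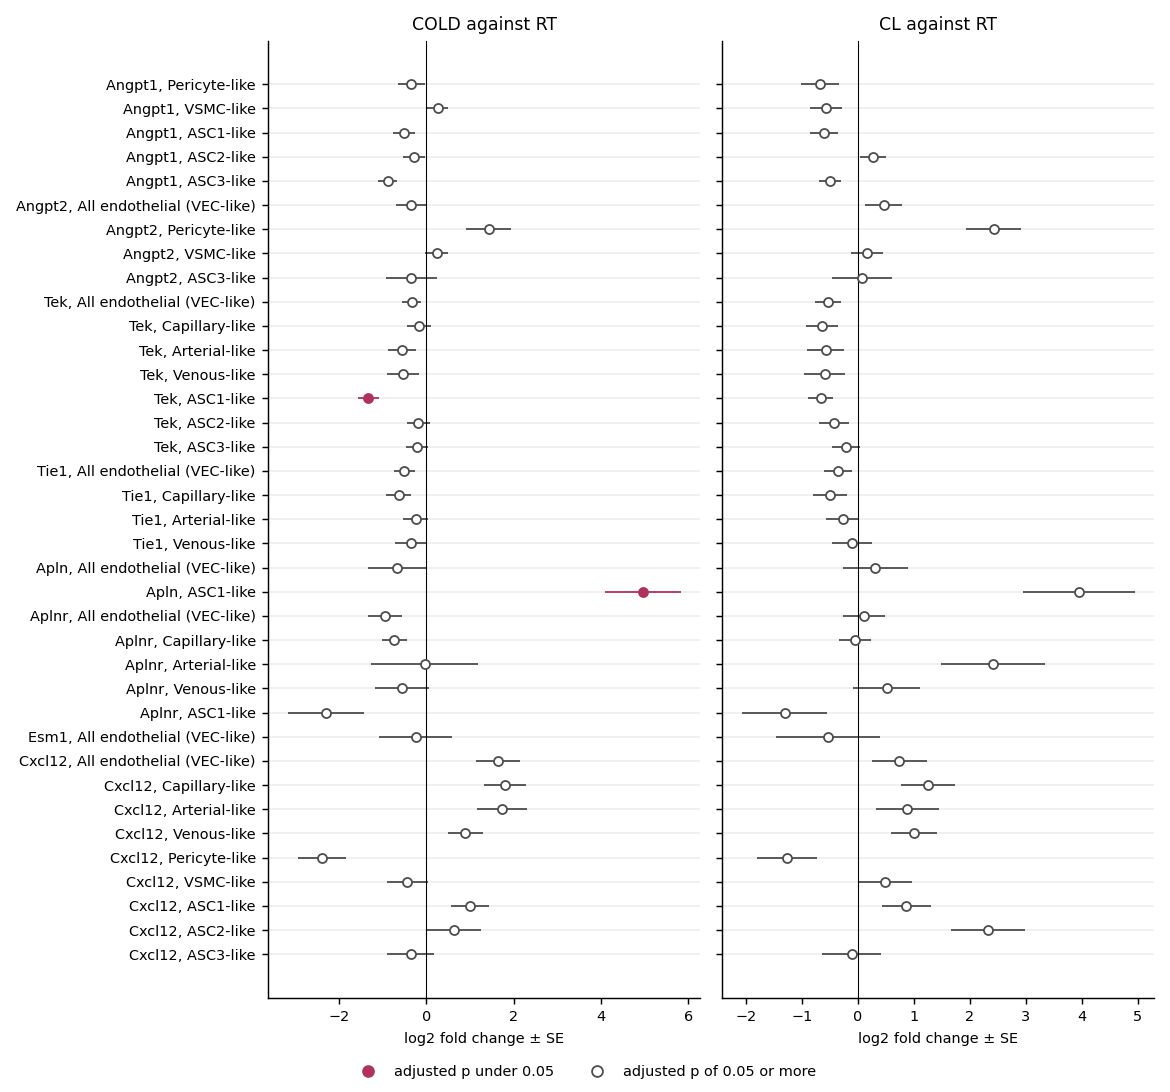
Log2 fold change with SE (lines) from edgeR for each of the 37 combinations of gene and class that passed the filter on low counts, with COLD against RT (left) and CL against RT (right; the 2 panels have axes of their own). Filled points passed an adjusted p of 0.05: Tek, and Apln as a description, in ASC1-like cells with COLD.

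Other genes of the pathways were taken from lists that were chosen with earlier results of these data known. Counts are of those genes that passed at an adjusted p of 0.05. None of the Apelin list (9 genes, among them Apela, Furin and Nos3) or the CXCL12 list (8 genes, among them the receptors Cxcr4 and Ackr3) passed in any class or contrast. In capillary-like cells with COLD the median log2 fold change of the tested genes was 0.32 for 4 genes of the Apelin list and 0.23 for 3 of the CXCL12 list, beside 0.01 over all 8149 genes. Of the angiopoietin list (12 genes, among them Ptprb, Foxo1 and Klf2), 1 of 8 tested in ASC1-like cells rose with COLD and with CL: Angptl4, an inhibitor of lipoprotein lipase, by 2.79 ± 0.39 (adjusted p = 0.0037, edgeR) and 2.64 ± 0.38 (0.0143). Of all genes in ASC1-like cells 7.71% passed with COLD and 0.821% with CL, so 1 of 8 with COLD is near the background. It is an angiopoietin-like protein and not a ligand of Tie2.

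Of the tip cell list, 2 of 17 genes fell in capillary-like cells with COLD, where 1.4% of all genes passed, and none rose. They were Trp53i11, a p53-inducible gene (-2.25 ± 0.32, adjusted p = 0.0059, edgeR), and Igfbp3, which encodes an insulin-like growth factor binding protein (-1.64 ± 0.36, 0.0467). With CL, Igfbp3 fell by -2.02 ± 0.38 (0.0477), where 0.405% of all genes passed, and Trp53i11 was lower in COLD than in CL by -2.14 ± 0.34 (0.0452), where 0.184% did. Over all VEC-like cells 1 of 20 passed, beside 0.187% of all genes: Trp53i11, which fell by -2.39 ± 0.27 with COLD (0.0307).

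In ASC1-like cells 1 of 11 rose with COLD, Nrp2 (1.21 ± 0.33, adjusted p = 0.0488, edgeR), near the share of all genes that rose (4.35%). The median log2 fold change with COLD was 0.29 over the 17 genes in capillary-like cells and -0.64 over the 11 in ASC1-like cells, beside 0.01 over all genes in both.

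Of the hypoxia list, 2 of 10 genes tested in ASC1-like cells fell with COLD, where 3.36% of all genes fell. They were Ndrg1 (-1.22 ± 0.26, adjusted p = 0.0194, edgeR) and Adm, which encodes adrenomedullin (-2.53 ± 0.56, 0.0237). The median log2 fold change over the 10 genes was 0.52 with COLD and 0.61 with CL, beside 0.01 and -0.01 over all genes. Hk2 and Ankrd37 of that list, 4 of 5 cell cycle genes tested in ASC1-like cells, and Birc5 in capillary-like cells were below the level of the filter on low counts in both RT libraries and, like Apln, were tested only because treated libraries were high, so their values are a description with no p. Hk2, which encodes hexokinase, measured 4.2 and 4.3 CPM in ASC1-like cells at RT, 11.8 and 16.5 after cold, and 18.9 and 12.7 with CL. Ankrd37, a gene known to respond to hypoxia-inducible factor, measured 10.8 and 6.8 CPM in capillary-like cells at RT, 35.1 and 63.8 after cold, and 47.8 and 78.1 with CL. In ASC1-like cells the mitotic kinase gene Cdk1 measured 0.51 and 0.56 CPM at RT, 17.9 and 4.6 after cold, and 16.5 and 2.9 with CL. In capillary-like cells the survivin gene Birc5 measured 1.5 and 0 CPM at RT, 26.7 and 14.9 after cold, and 7.5 and 0 with CL.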

How the data were processed

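Lin- and Lin+ cells of iBAT were sequenced with 10x Genomics 3' chemistry. The deposited matrices hold expected counts, which the authors made with Cell Ranger 3.0.1 on mm10 (per the submitters' processing notes) and corrected for free RNA with SoupX, so that most values are not whole; Fabp4 and Car3 served as genes most cells lack. They were rounded to whole numbers after summing over cells. Cells of at most 10% mitochondrial counts and 15000 UMIs were kept, with at least 100 genes in Lin-. Clusters (scanpy 1.11.5, 2000 variable genes, 30 components, resolution 1) left out 185 genes, the members and listed genes, and were named from markers. No doublets were removed, and leaving out the top 6% of doublet scores was an alternative.

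Sums per library and class were fitted over the 6 C57BL/6J Lin- libraries, for 9 classes with at least 20 cells a library, with edgeR 4.0.16 (quasi-likelihood, Benjamini-Hochberg over all genes of a class and contrast, threshold 0.05). DESeq2 1.42.0 was an alternative, as was the replicate number as a block: the study's methods merge libraries of the same replicate experiment, and deviations of same-numbered libraries from their group means correlated at -0.11 to 0.35 (Pearson) over genes. Intervals of counts are exact and cover counting error only. The SE given with an edgeR fold change was derived from the F statistic of the same test and is not a separate estimate of error. Named genes were all 8 members and up to 4 genes past the threshold per list, class and contrast. On simulated counts of capillary-like cells (7763 genes) 30.2% of 2-fold and 95.2% of 4-fold changes were recovered, with 9 false calls. The changed genes were drawn only from genes of higher level, so these shares do not describe members of low level such as Apln. Members and lists were chosen with earlier results of these data known. Total UMIs per Lin- library were 7857161 to 31325801. The genes most like Esm1 across classes are not reported here.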

Additional observations from a re-analysis of the deposited data

Results flagged for a closer look

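In 5 cases the response of a member passed a test of the difference between classes (edgeR, log2 scale, C57BL/6J libraries), where 1.6% of all genes did. A further 4 differences are given as a description. With COLD against RT, the response of Tek in ASC1-like cells was lower than in ASC2-like (-1.13) and ASC3-like cells (-1.18). The response of Tek in VEC-like cells was higher than in ASC1-like cells (1.03). That of Cxcl12 was higher in ASC1-like than in ASC3-like cells by 1.52. None of these calls of Tek and Cxcl12 held in every fit with 1 library left out, as given above. With CL against RT, Aplnr differed between capillary-like and arterial-like cells by -2.53, and this rests on CL replicate 1, since the other CL library held no Aplnr in arterial-like cells. The fitted differences of Apln between the same pairs as Tek were 5.45, 6.29 and -5.63. They are a description, because Apln passed the filter on low counts only through the treated ASC1-like libraries and its RT level there is near 0. Cxcl12 differed between capillary-like and pericyte-like cells by 4.04, a description of a pair chosen after the values were seen. The cause of these differences was not tested.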

How the results depend on the processing

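With COLD against RT, 2 members passed (Tek, and Apln as a description), against 6 in DESeq2, 5 with no filter on low counts, 11 with the Adrb1 line added, 4 with the Cxcl9-led cells joined to ASC1-like cells, and 0 to 5 when 1 library was left out. With CL against RT 0 passed, against 4 with no filter and 0 to 2 without 1 library. With COLD against CL 0 passed, against 3 with no filter and 0 to 1 without 1 library. The 8 differences between classes became 3 to 15 without 1 library. Other size factors, the doublet, depth and clustering alternatives, and leaving out the shared barcodes (chosen after seeing the data) left the number of combinations passing in each contrast as it was. The Aplnr difference between capillary-like and arterial-like cells was -8.77 without RT replicate 1 and 5.69 without CL replicate 1, fits over an arterial-like RT or CL group at 0 that give no size or direction. Without thinning, the difference in shares of VEC-like cells between COLD and RT was -0.566 percentage points for Apln, 0.498 for Esm1 and -0.0627 for Angpt2. The cause of these changes was not tested.

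With the replicate number as a block, 2 combinations passed with COLD, 1 with CL (Cxcl12 in ASC2-like cells) and 0 with COLD against CL. The block changed no other call of a member within a class. Apln, Esm1 and Angpt2 were found in few cells, and the part of depth in this was not tested.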
